A study of Mus musculus with 41 samples.

Results

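Amino acid stress and the unfolded protein response were followed through 40 genes in MEEC, a mouse endocardial cell line, under Notch ligands and a Notch inhibitor. The genes were taken by symbol from a list of 40, and all 40 were present under the same Ensembl identifier in each of the 3 deposited expression tables, which hold 13886, 12984 and 13407 genes. They form 2 classes: 22 genes of the kind driven by the transcription factor ATF4, and 18 genes of endoplasmic reticulum (ER) folding. All 40 passed the filter on low values, which asked for a signal of at least 1 in 3, 4 and 3 libraries of the 3 experiments.

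The endocardium is the inner endothelial lining of the heart, and Notch signalling there is set off by ligands such as Dll4 and Jag1 on neighbouring cells. In the first experiment MEEC lay over confluent (90%) OP9 mouse stromal feeders that carried GFP, Dll4 or Jag1, for 6 h after seeding at 50% confluency or for 24 h after seeding at 25% (n = 3 libraries per group). In the second, MEEC spent 24 h in DMSO vehicle or with RO4929097 at 20 µM, a blocker of the protease gamma-secretase that cuts Notch into its active form, followed by 6 h of co-culture on OP9-GFP feeders (n = 4). In the third, MEEC grew without feeders in wells coated with recombinant DLL4 or JAG1 (rDLL4, rJAG1) under DMSO or 20 µM RO4929097, or in control wells under DMSO, for 38 h in all: 24 h followed by 14 h in serum-free medium (n = 3). Every library is labelled as MEEC of WT genotype, so all results are from 1 line. The labels do not say whether MEEC were separated from the feeders before RNA was extracted, so feeder RNA may be part of the libraries of the first and second experiments. In such bulk samples fewer cells of a type and less RNA per cell cannot be told apart.

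Amino acid shortage, ER stress and other insults meet in the phosphorylation of the initiation factor eIF2, which lowers general translation while raising that of ATF4. ATF4 then drives genes for amino acid synthesis and uptake, one-carbon metabolism and restraint of growth signalling. Unfolded protein in the ER lumen also activates ATF6 and IRE1, and IRE1 splices Xbp1 mRNA; ATF6 and spliced XBP1 drive the ER chaperones, oxidoreductases and degradation factors. Endothelial cells export much matrix and membrane protein, and so depend on this folding machinery.

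The classes also differ in promoter sequence, which is shown here because the levels of the classes parted in the experiments. RefSeq promoter windows of build GRCm38.p6 (250 bases before to 50 after the start) were at hand for 35 of the 40 genes, 20 ATF4-type and 15 ER genes. The ER stress element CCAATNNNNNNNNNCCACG, searched on both strands, was found for 7 of the 15 ER genes (46.67%), 0 of the 20 ATF4-type genes and 37 of 27025 windows of all genes (0.1369%). Those 7 were Calr, Canx, Creld2, Dnajc3, Hsp90b1, Hspa5 and Pdia6. A second form, ATTGGNCCACG, was found for Herpud1 and in 12 windows of all genes (0.0444%). It ends in the CCACG of the first form, but no member held both. The C/EBP-ATF element TGATGNAA, the type that ATF4 binds with a partner, was found for 6 of the 20 ATF4-type genes (30%), for 1 ER gene, Herpud1, and in 4.511% of all windows; the 6 were Asns, Atf3, Chac1, Pycr1, Slc7a11 and Trib3. A match is a description of the letters, not a shown binding site.

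In the following sequences, written 5′ to 3′ on the gene's strand, the match is in capitals with 25 bases on each side, and the coordinates are those of the stretch printed. They are the ER stress elements of Hspa5 (chr2:34772000-34772068, plus strand), Dnajc3 (chr14:118937802-118937870, plus) and Creld2 (chr15:88819495-88819563, plus, match on the opposite strand), the second form in Herpud1 (chr8:94386352-94386412, plus), and the C/EBP-ATF elements of Asns (chr6:7693210-7693257, minus, cut before the start site), Slc7a11 (chr3:50443647-50443704, minus; a second match further along, on the opposite strand, is left in lower case) and Pycr1 (chr11:120643819-120643876, minus).
Hspa5: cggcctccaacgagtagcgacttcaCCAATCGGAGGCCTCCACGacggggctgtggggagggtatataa
Dnajc3: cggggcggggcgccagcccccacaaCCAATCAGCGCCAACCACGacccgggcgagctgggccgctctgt
Creld2: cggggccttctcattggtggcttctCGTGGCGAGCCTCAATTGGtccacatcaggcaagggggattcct
Herpud1: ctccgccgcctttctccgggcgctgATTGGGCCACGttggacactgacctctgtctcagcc
Asns: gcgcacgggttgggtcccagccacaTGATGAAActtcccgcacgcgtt
Slc7a11: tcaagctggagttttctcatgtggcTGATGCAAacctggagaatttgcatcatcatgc
Pycr1: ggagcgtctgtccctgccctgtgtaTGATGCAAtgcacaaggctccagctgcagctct
Hspa5, Dnajc3, Creld2 and Herpud1 rose with time over every feeder, but of the other genes with the first ER stress element Canx and Hsp90b1 were called over 2 of 3 feeders and Calr and Pdia6 over none in the fit without pairing. Of the 3 genes shown with a C/EBP-ATF element Pycr1 fell with time and Asns and Slc7a11 rose on rJAG1. Of the other ATF4-type genes with it, Trib3 rose on rDLL4 and rJAG1, and Atf3 and Chac1 were not called in the fit without pairing. No match of any kind was found for Manf, Xbp1, Ddit4 or Vegfa, which rose with time over every feeder, though some members had no window. The link between match and response was not tested. The genes with most of the results lie, in GRCm38, at chr2:34771970-34777547, plus strand (Hspa5), chr8:94386438-94395377, plus strand (Herpud1), chr10:59949669-59951834, minus strand (Ddit4), chr4:132492032-132510501, minus strand (Sesn2), chr2:152337422-152344032, minus strand (Trib3) and chr3:98313170-98339990, minus strand (Phgdh).

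Expression is given as the deposited normalized signal, a per-million scale, in each library, in the order of library numbers, and changes as log2 fold changes ± SE on the log2(signal + 1) scale. A gene was called when its adjusted p (limma, Benjamini-Hochberg over all genes of the table) was under 0.05. Depth per library, as recovered reads, was 14.1 to 16.8 M over the ligand feeders, 19.4 to 25.2 M after pretreatment and 11.2 to 34.2 M on coated wells (medians 15.2, 22.5 and 18.1 M). To look at the labels, 5 Notch targets were followed (Hes1, Hey1, Hey2, Heyl, Nrarp). This list was chosen with earlier results of these data known, so it is no independent check. All 5 were called higher on rDLL4 and on rJAG1 and lower with inhibitor on either ligand. The 4 of them listed in the second table were lower with inhibitor. Over feeders fewer were called against OP9-GFP: 0 of 5 for OP9-Dll4 and 3 for OP9-Jag1 at 6 h, and 3 and 4 at 24 h. Of 12 endothelial and endocardial markers, 6, 5 and 5 were listed in the 3 experiments. Pecam1, Cdh5, Tie1, Emcn, Cldn5 and Vwf were listed in none. The minimum signal of 1 removed 0 of the deposited genes, so genes of low signal seem to have been left out before deposit. The absence of these defining markers thus goes with little or no signal, and does not bear out the labelled cell type. Some libraries stood apart: number 2 of every feeder group at 6 h, number 3 of the DMSO wells and number 2 of the rJAG1 wells.

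ER folding genes rose between 6 h and 24 h over each of the 3 feeders. Of the 18, 10 were higher and 0 lower over OP9-GFP, 8 higher and 2 lower over OP9-Dll4, and 10 higher and 0 lower over OP9-Jag1. Over all 40 genes the counts were 12 higher and 2 lower, 12 higher and 4 lower, and 14 higher and 2 lower. Changes were common in this comparison: 19.2% of all genes were called over OP9-GFP (9.45% higher, 9.71% lower), 17.4% over OP9-Dll4 (9.09% and 8.33%) and 14.7% over OP9-Jag1 (7.14% and 7.61%). The median log2 fold change of the 18 ER genes was 0.39, 0.33 and 0.35 over the 3 feeders, against -0.01, -0.01 and 0.00 for all genes. The 6 h and 24 h cultures also differ in seeding density, so time and density cannot be told apart. The 3 comparisons share no libraries, and 17 of the 18 ER genes had the same sign in all 3. Same-numbered libraries deviated together across feeders within a time, so the 3 comparisons are not independent repeats. Of the 22 ATF4-type genes 17 also had the same sign in all 3, and the share of all genes was not counted.

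Hspa5 encodes BiP, the abundant ER chaperone that also holds the stress sensors inactive. Over OP9-GFP its signal was 1085, 847 and 1052 at 6 h and 1809, 1559 and 2055 at 24 h. Over OP9-Dll4 it was 1142, 872 and 1093 and then 1738, 1733 and 1859. All 24 h libraries were above all 6 h libraries, and library 2 was the lowest at 6 h over either feeder. Over OP9-Jag1 the values were 1143, 858 and 1088 at 6 h and 1755, 1871 and 1934 at 24 h, again without overlap. The log2 fold changes were 0.86 ± 0.13, adjusted p = 0.00046 over OP9-GFP, 0.79 ± 0.13, adjusted p = 0.001 over OP9-Dll4 and 0.86 ± 0.13, adjusted p = 0.00055 over OP9-Jag1.

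Herpud1, which helps move misfolded protein out of the ER for degradation, had the largest change among the ER genes over every feeder. It went from 29.5, 27.5 and 28.6 to 55.5, 51.5 and 64.3 over OP9-GFP. It went from 28.9, 25.1 and 28.9 to 51.7, 49.8 and 56.7 over OP9-Dll4, and from 29.6, 23.8 and 27.8 to 55.2, 56.3 and 61.7 over OP9-Jag1. The groups lay far apart compared with their spread (log2 fold changes 0.97 ± 0.09, 0.91 ± 0.09 and 1.07 ± 0.09, with limma adjusted p between 4.1e-06 and 2.3e-05). The other degradation factors moved less. Edem1, a lectin that hands over misfolded glycoproteins, was called over OP9-Dll4 (0.28 ± 0.09) and OP9-Jag1 (0.31 ± 0.09), and Sel1l, the scaffold of the Hrd1 ligase, over no feeder (-0.01 to 0.17).

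Xbp1, the target of IRE1 splicing, rose by nearly the same amount over every feeder. Its signal was 69.7, 44.0 and 64.1 at 6 h and 92.6, 84.9 and 99.8 at 24 h over OP9-GFP, 67.0, 49.0 and 65.4 and 96.8, 87.1 and 101 over OP9-Dll4, and 71.6, 52.2 and 67.9 and 105, 88.3 and 109 over OP9-Jag1. The 6 h and 24 h libraries did not overlap, and the log2 fold change was 0.66 ± 0.16, 0.66 ± 0.16 and 0.66 ± 0.16. These tables count genes, so spliced and unspliced Xbp1 were not told apart. Atf6, which encodes the membrane-bound factor, went the other way over OP9-Dll4 (-0.25 ± 0.08, adjusted p = 0.035) and was at -0.21 ± 0.08 and -0.22 ± 0.08 over the other feeders, neither called.

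Among the co-chaperones, Dnajc3, an inhibitor of the eIF2 kinase PERK as well as a BiP partner, rose over each feeder. It was at 127, 105 and 124 and then 185, 157 and 205 over OP9-GFP, 131, 112 and 130.3 and then 179, 155 and 189 over OP9-Dll4, and 123, 109 and 119 and then 175, 169 and 194 over OP9-Jag1. Early and late libraries did not overlap (log2 fold changes 0.61 ± 0.10, 0.48 ± 0.10 and 0.61 ± 0.10). Sdf2l1, which keeps BiP clients soluble, was called over OP9-GFP (0.56 ± 0.14) and OP9-Dll4 (0.43 ± 0.14), and Dnajb9, another BiP partner, over no feeder (0.13 to 0.20).

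Manf and Creld2, whose products are made under ER stress and can be secreted, rose over all feeders. Manf was at 150.0, 104 and 144 and then 227, 186 and 233 over OP9-GFP, 163, 113 and 148 and then 220.3, 187 and 229 over OP9-Dll4, and 162, 115 and 157 and then 226, 195 and 231 over OP9-Jag1. Creld2 was at 65.3, 60.9 and 59.7 and then 93.7, 79.3 and 98.8, 74.0, 60.8 and 60.4 and then 94.0, 83.6 and 88.7, and 71.5, 58.5 and 66.0 and then 84.1, 89.6 and 84.7 in the same order. Neither gene overlapped between times. The log2 fold changes of Manf were 0.71 ± 0.16, 0.60 ± 0.16 and 0.60 ± 0.16, and those of Creld2 0.54 ± 0.09, 0.45 ± 0.09 and 0.40 ± 0.09.

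Among the other general chaperones and the oxidoreductases calls were fewer. Hsp90b1 (GRP94) was called over OP9-GFP (0.56 ± 0.15) and OP9-Jag1 (0.54 ± 0.15), as were the lectin chaperone Canx (0.25 and 0.27) and the disulfide isomerase Pdia4 (0.43 and 0.44). Calr, Pdia3 and Pdia6 were called over no feeder, with log2 fold changes from 0.12 to 0.35, each positive over every feeder. Ero1l, the oxidase that recharges the isomerases, fell over OP9-Dll4 (-0.26 ± 0.07, adjusted p = 0.021) and was not called over OP9-GFP (-0.10) or OP9-Jag1 (-0.11).

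**Figure D1:**
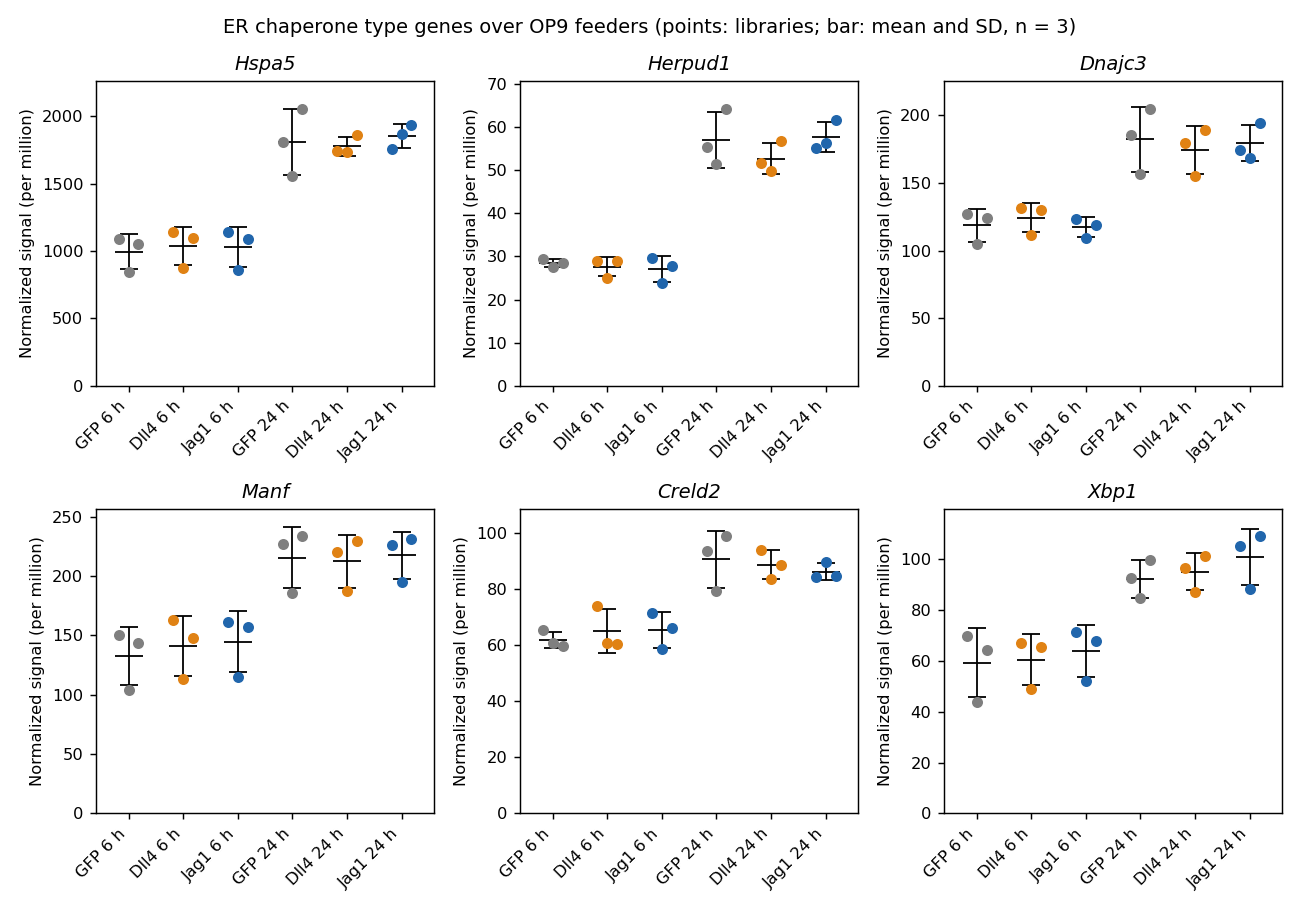
Normalized per-million signal (y axis, from 0) of 6 ER folding genes in the 18 feeder co-culture libraries, by feeder and time (x axis); points are libraries, and bars the mean and SD of 3. For each gene and feeder the 24 h libraries lie above the 6 h libraries, and within a time the 3 feeders overlap.

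Some ER counts rest on single libraries. Without all 3 of the 6 h libraries numbered 2, an alternative chosen after seeing the data, 8, 7 and 7 of the 18 ER genes were called over OP9-GFP, OP9-Dll4 and OP9-Jag1, and the Hspa5 change was 0.75, 0.67 and 0.73. Of all genes 15.5%, 14.1% and 12.6% were called there. Leaving out 1 library took the ER count over OP9-GFP to 5 (6 h library 2) and 6 (24 h library 1), over OP9-Dll4 to 5 (6 h library 2), 6 (6 h library 3), 5 (24 h library 1) and 6 (24 h library 3), and over OP9-Jag1 to 3 (6 h library 2) and 5 (24 h library 3). Library 2 gave the lowest value of its 6 h group for 13 of 18 ER genes over OP9-GFP, 12 over OP9-Dll4 and 16 over OP9-Jag1; at 24 h library 2 was the lowest for 17, 17 and 12. The part of this library difference in the results was not tested. Of 13 OP9 stromal markers 9 were listed (not Lepr, Pparg, Adipoq and Ebf1), and their summed signal ran from 786 to 1246 at 6 h and from 773 to 1002 at 24 h over OP9-GFP. Over OP9-Dll4 the sum ran from 805 to 1068 and then 772 to 872, and over OP9-Jag1 from 791 to 996 and then 802 to 907. The times overlapped over each feeder, library 2 was the highest of each 6 h group, and 1 listed marker was called, Cebpa over OP9-Jag1 (-0.74). In coated wells without feeders the OP9 markers listed there, with Ebf1 in place of Fabp4, summed to 761 to 1287, so this sum does not single out feeder RNA. The 6 listed endothelial markers summed to 37.3 to 66.2 at 6 h and 27.1 to 41.3 at 24 h over the 3 feeders, and Flt1 among them was called lower over OP9-GFP (-1.71) and OP9-Dll4 (-1.62). In the same comparison over OP9-Dll4 the cardiomyocyte markers Myh7 (2.39), Actc1 (1.94), Myl2 (1.52) and Ttn (1.24) were higher and Myl7 (-0.90) lower, and the erythroid Hbb-bs was higher (1.38). The part of these markers in the time changes was not tested.

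ATF4-type genes did not rise as a class with time. Of the 22, 2 were higher and 2 lower over OP9-GFP, 4 higher and 2 lower over OP9-Dll4, and 4 higher and 2 lower over OP9-Jag1, with median log2 fold changes of 0.03, -0.01 and 0.08. The same 4 genes were called over all feeders: Ddit4 and Vegfa higher, Cth and Pycr1 lower. Sesn2 and Phgdh were also higher over OP9-Dll4 and OP9-Jag1.

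Ddit4 (REDD1), an inhibitor of mTORC1 that hypoxia and stress induce, had the largest rise of all 40 genes over every feeder. Its signal was 6.40, 7.44 and 6.95 at 6 h and 17.0, 11.4 and 18.5 at 24 h over OP9-GFP. Over OP9-Dll4 it was 8.91, 7.61 and 6.42 and then 20.1, 14.6 and 24.5, and over OP9-Jag1 6.78, 7.30 and 7.39 and then 28.1, 18.1 and 31.6. The early groups lay at the same level and none overlapped its late group. The log2 fold changes were 1.04 ± 0.21, adjusted p = 0.0027, 1.24 ± 0.21, adjusted p = 0.00084 and 1.69 ± 0.21, adjusted p = 8.3e-05.

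Sesn2, a leucine sensor that also restrains mTORC1, was called over the ligand feeders only, and the test of that difference was not passed. It was at 17.0, 19.7 and 18.8 and then 26.4, 20.0 and 30.1 over OP9-GFP (0.42 ± 0.17, adjusted p = 0.094). It was at 19.5, 19.2 and 16.1 and then 33.8, 23.5 and 35.5 over OP9-Dll4 (0.71 ± 0.17), and 15.95, 16.2 and 19.8 and then 40.5, 27.8 and 41.7 over OP9-Jag1 (1.02 ± 0.17). No late library was below an early one, but over OP9-GFP late library 2 was close to the early group. The interaction of time with OP9-Jag1 against OP9-GFP was 0.60 ± 0.25, adjusted p = 1 for Sesn2 and 0.65 ± 0.29, adjusted p = 1 for Ddit4. No member was called in the interaction of either ligand feeder with time, where 0.0072% of all genes were called for Dll4 and 0.0072% for Jag1; at an unadjusted p under 0.05 there were 0 and 2 members, and edgeR called 0 in either.

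Vegfa, the endothelial growth factor that ATF4 and hypoxia can both induce, went from 36.0, 46.6 and 34.1 to 56.1, 47.2 and 59.0 over OP9-GFP, from 37.8, 47.1 and 34.4 to 58.5, 52.3 and 64.6 over OP9-Dll4 and from 37.7, 40.4 and 39.3 to 65.7, 58.5 and 67.9 over OP9-Jag1. Early and late values came close over OP9-GFP and did not overlap over any feeder. The log2 fold changes were 0.47 ± 0.12, 0.55 ± 0.12 and 0.70 ± 0.12. Of 12 listed hypoxia and glycolysis genes 3, 5 and 6 were also higher at 24 h and 0 lower over the 3 feeders, among them the glucose transporter gene Slc2a1 (0.61, 0.69 and 0.69).

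The amino acid synthesis genes split. Cth, the last step from methionine to cysteine, was at 14.1, 11.9 and 11.1 and then 7.47, 7.62 and 7.06 over OP9-GFP, 10.6, 10.9 and 13.2 and then 9.53, 7.74 and 6.95 over OP9-Dll4, and 11.5, 10.5 and 13.0 and then 9.24, 7.05 and 8.30 over OP9-Jag1. It fell by 0.67, 0.47 and 0.46 on the log2 scale, with no overlap between times. Pycr1, the last step of proline synthesis in mitochondria, was at 25.1, 25.1 and 22.5 and then 16.3, 18.5 and 18.7, 24.3, 23.7 and 21.5 and then 18.1, 16.1 and 19.8, and 25.1, 28.0 and 22.4 and then 18.1, 14.0 and 19.9, which is a change of -0.42 ± 0.12, -0.35 ± 0.12 and -0.52 ± 0.12. Phgdh, the first step of serine synthesis, was called higher over both ligand feeders: it was at 489.7, 397 and 470.2 and then 513, 542 and 539.5 over OP9-GFP (0.24 ± 0.09, not called), 539, 441 and 471 and then 636, 588 and 595 over OP9-Dll4 (0.33 ± 0.09), and 521, 446 and 514 and then 628, 589.8 and 581 over OP9-Jag1 (0.28 ± 0.09). The next steps of that path were not called: Psat1 lay at -0.14 to -0.10 and Psph at -0.26 to -0.21.

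Asns, the asparagine synthetase gene often read as a gauge of ATF4, was at 199, 159 and 192 at 6 h and 162, 135 and 164 at 24 h over OP9-GFP, with changes of -0.25, -0.16 and -0.14 over the 3 feeders and no call. Atf4 mRNA was at 292, 285 and 301 and then 353, 311 and 367 over OP9-GFP (0.23 ± 0.08, adjusted p = 0.061). Every late Atf4 library was above every early one over OP9-GFP, but the gene was not called over any feeder. Ddit3 (CHOP), the factor tied to cell death under lasting ER stress, was at 13.2, 15.6 and 14.0 and then 13.4, 14.8 and 14.0 over OP9-GFP, groups that overlap. The 4 transporter genes Slc7a11, Slc7a5, Slc3a2 and Slc7a1 were not called, with changes from -0.28 to 0.35.

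**Figure D2:**
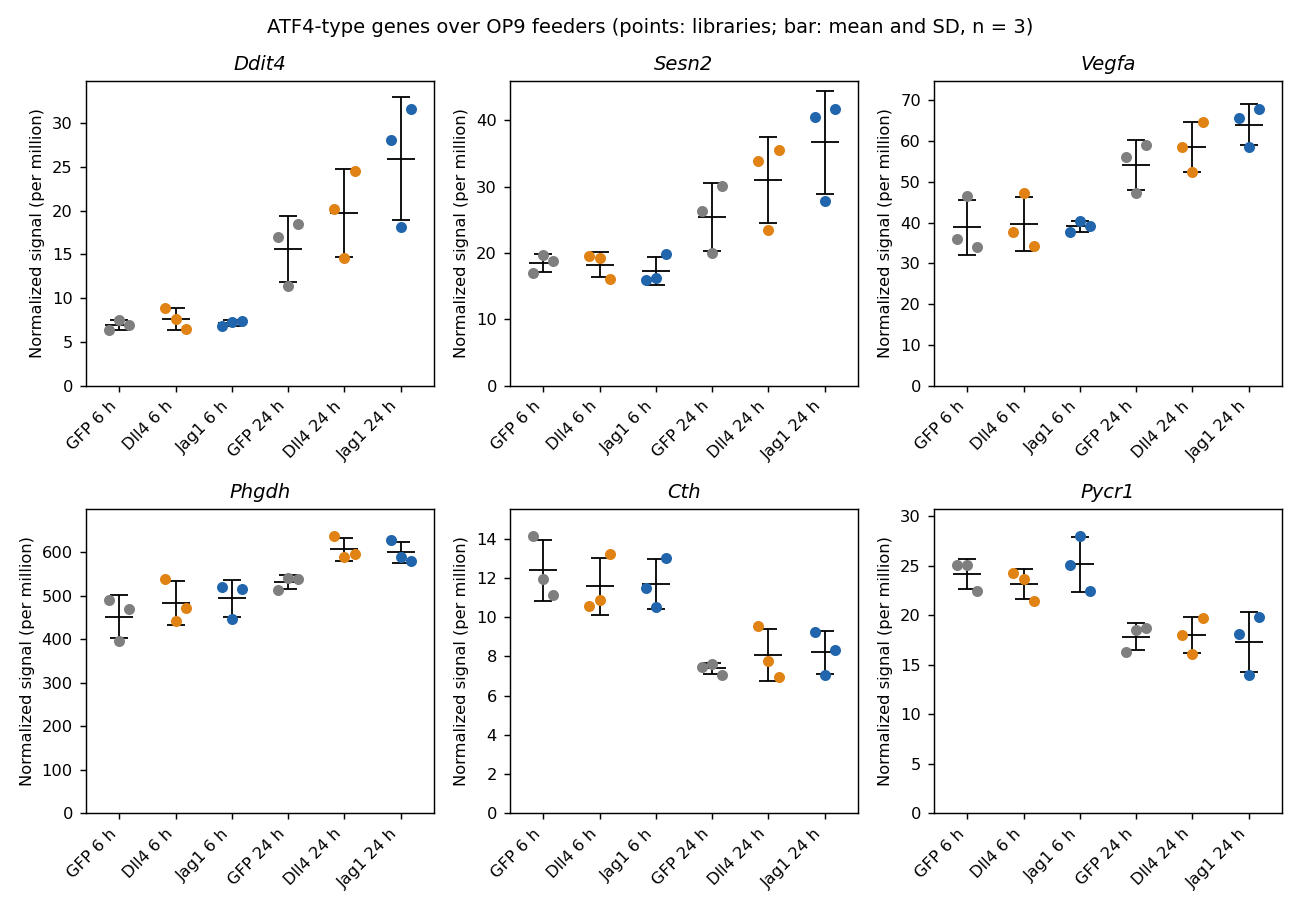
Normalized per-million signal (y axis, from 0) of 6 ATF4-type genes in the 18 feeder co-culture libraries, by feeder and time (x axis); points are libraries, and bars the mean and SD of 3. Ddit4 and Vegfa are higher and Cth and Pycr1 lower at 24 h over each feeder, and library 2 (middle point) is the lowest of its late group for Ddit4 and Sesn2.

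No member was called for a ligand on the feeder, at either time, in the fit without pairing. The share of all genes called was also small: 0.0072% for OP9-Dll4 and 0.101% for OP9-Jag1 against OP9-GFP at 6 h, and 0.511% and 2.02% at 24 h. OP9-Dll4 against OP9-Jag1 called no member either (0% of all genes at 6 h, 0.0288% at 24 h). At an unadjusted p under 0.05 there were 2, 2, 2, 3, 0 and 0 members in these 6 comparisons, and edgeR called 0 in each. Without OP9-Jag1 library 2 at 24 h, 2 members were called over OP9-Jag1 at 24 h, Ddit4 and Sesn2.

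Same-numbered libraries deviated together within each time, and a fit with the library number as a block within each time called some members. Over OP9-Jag1 at 24 h it called 6 of 40 (10.9% of all genes): Ddit4 (0.69 ± 0.09, adjusted p = 7.3e-05), Sesn2 (0.51 ± 0.09, adjusted p = 0.00057), Cebpb (0.31), Vegfa (0.24) and Phgdh (0.17) higher and Ero1l (-0.16) lower, 15% of the members beside 10.9% of all genes. In the libraries of equal number Ddit4 was at 28.1 against 17.0, 18.1 against 11.4 and 31.6 against 18.5, and Sesn2 at 40.5 against 26.4, 27.8 against 20.0 and 41.7 against 30.1, higher in 3 of 3 pairs for either gene. Over OP9-Dll4 at 24 h it called Phgdh (0.19) and Ero1l (-0.20), 2 of 40 beside 5.82% of all genes. At 6 h it called Cebpb, a partner of ATF4 on the C/EBP-ATF element, over OP9-Dll4 (0.35, with 1.17% of all genes called), and Cebpb (0.39), Manf (0.13) and Ero1l (-0.15) over OP9-Jag1 (3.36% of all genes). No other ER gene was called in these fits, and in the fit without pairing the ER genes lay between -0.20 and 0.13 in the 4 comparisons with OP9-GFP. The OP9-Dll4 libraries at 24 h also held more signal of the 6 listed cardiomyocyte markers (43.8 to 79.1, against 29.5 to 33.2 over OP9-GFP), with Myh7, Actc1, Myl2 and Ttn called higher (1.37 to 3.29), and its part in the member values was not tested.

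No member was called for RO4929097 ahead of 6 h over OP9-GFP, with 0.909% of all genes called and 4 members at an unadjusted p under 0.05. A fit with the library number as a block also called none, beside 3.29% of all genes, and edgeR none. Member changes lay between -0.24 (Slc7a11) and 0.23 (Ddit3). Hspa5 was at 981, 1080.0, 1359 and 1555 in DMSO and 982, 994, 1446 and 1685 with inhibitor (0.02 ± 0.19). Libraries 3 and 4 of both groups lay above libraries 1 and 2, and the groups overlapped throughout.

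Xbp1 showed the same split by library number, at 59.2, 53.0, 77.5 and 75.2 in DMSO and 64.0, 50.3, 76.2 and 80.6 with inhibitor (0.03 ± 0.16). Of the 18 ER genes, library 1 gave the lowest value for 11 in DMSO and 13 with inhibitor, and library 4 the highest for 12 and 15. Library 1 also held the highest summed signal of the 8 listed OP9 markers, 1720.3 in DMSO and 1808 with inhibitor, where the other libraries lay between 838 and 1070.1. On coated wells without feeders 9 listed OP9 markers, these 8 and Ebf1, summed to 761 to 1287. Such signal thus also occurs without feeders, but library 1 lay above that range in either group. The part of feeder RNA in the library 1 sums was not tested. The part of this marker signal in the ER levels was not tested. Atf4 was at 267, 341, 285 and 309.7 and 294, 338, 292 and 311, Asns at 172, 202, 184 and 186 and 198, 193, 179 and 183, and Ddit3 at 11.8, 17.7, 9.38 and 9.43 and 15.1, 20.9, 11.8 and 9.97, all overlapping. Phgdh was at 422, 509, 444 and 430.0 in DMSO and 398, 400.2, 390.4 and 428 with inhibitor (-0.16 ± 0.07, adjusted p = 0.44), lower with inhibitor in 4 of 4 numbers but not called. Vegfa was the single member whose groups did not overlap, at 34.1, 36.7, 34.9 and 36.2 in DMSO and 29.3, 34.1, 29.6 and 28.9 with inhibitor (-0.22 ± 0.07, adjusted p = 0.23), also not called. Inhibitor library 2 lay just under DMSO library 1. The share of all genes without such overlap was not counted, so this single gene is no shown effect of the inhibitor.

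**Figure D3:**
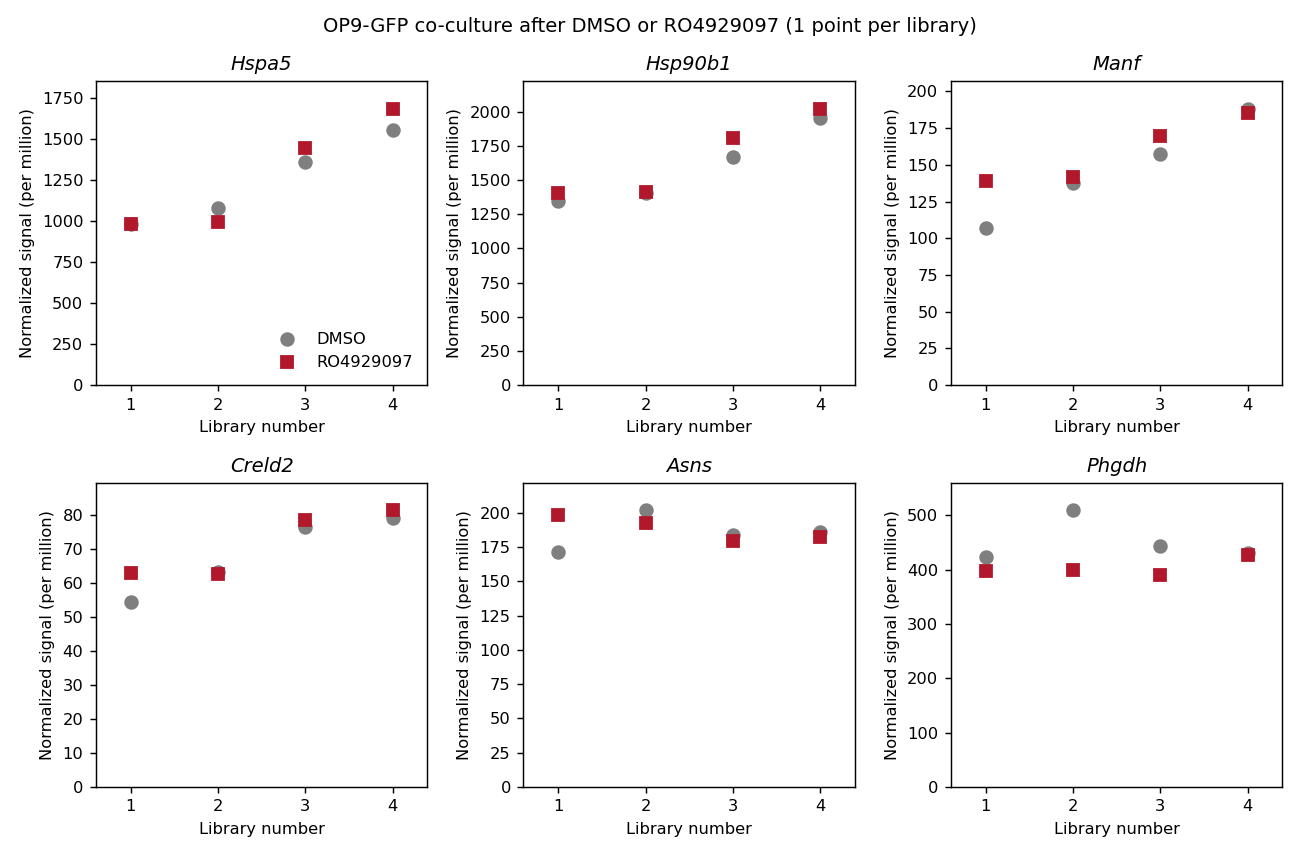
Normalized per-million signal (y axis, from 0) of 4 ER folding genes and of Asns and Phgdh after DMSO (circles) or RO4929097 (squares) and 6 h over OP9-GFP, by library number (x axis; the numbers have no order). The ER genes differ more between library numbers than between treatments.

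On coated wells ATF4-type genes rose with ligand, and no ER gene was called. On rJAG1 10 of the 22 ATF4-type genes were higher than in DMSO control wells and 0 lower, and on rDLL4 4 were higher and 0 lower; 0 of the 18 ER genes were called on either. Of all genes 9.58% were called on rJAG1 (4.83% higher) and 3.5% on rDLL4 (2.45% higher), so 10 of 40 members higher, or 25%, stands beside 4.83%, and 4 of 40 beside 2.45%. The median log2 fold change of the ATF4-type genes was 0.28 on rJAG1 and 0.22 on rDLL4, and that of the ER genes 0.03 and 0.07. Of the 22, 21 were positive on either ligand. These comparisons share the DMSO wells.

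Trib3, a pseudokinase that ATF4 induces and that holds ATF4 back, was at 93.7, 81.6 and 79.2 in DMSO, 125, 106 and 124 on rDLL4 and 130.3, 138 and 118 on rJAG1. Every ligand library was above every DMSO library. The log2 fold changes were 0.48 ± 0.10, adjusted p = 0.019 on rDLL4 and 0.60 ± 0.10, adjusted p = 0.0014 on rJAG1. Sesn2 was at 40.9, 33.4 and 36.0 in DMSO, 56.7, 44.9 and 50.7 on rDLL4 and 52.7, 55.8 and 56.1 on rJAG1, also without overlap (0.45 ± 0.12 and 0.57 ± 0.12). With 1 library left out, the rDLL4 calls of Trib3 and Sesn2 were kept in 3 and 2 of 6 fits and both rJAG1 calls in 6 of 6.

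Phgdh, the first step of serine synthesis, and Mthfd2, a mitochondrial folate enzyme gene, rose on rJAG1 and, with calls that single libraries decide, on rDLL4. Phgdh was at 515, 473 and 476 in DMSO, 672, 566 and 593 on rDLL4 and 736, 754 and 658 on rJAG1. The groups did not overlap, and the change was 0.32 ± 0.08, adjusted p = 0.049975 on rDLL4, just under the threshold, and 0.55 ± 0.08, adjusted p = 0.00044 on rJAG1. The rDLL4 call of Phgdh was lost without any 1 of the 6 libraries, that of Mthfd2 was kept in 1 of 6 such fits, and both rJAG1 calls were kept in 6 of 6. Mthfd2 was at 201, 182 and 200.2, 231, 224 and 222 and 233, 239 and 232 in the same order (0.22 ± 0.06 and 0.27 ± 0.06). Psph, the last step of serine synthesis, was called on rJAG1 (0.40 ± 0.09) and not on rDLL4 (0.25 ± 0.09), and Psat1, the middle step, on neither (0.01 and -0.04).

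Cth and Slc7a11, which supply cysteine from methionine and from outside the cell, were called on rJAG1. Cth was at 27.9, 24.2 and 40.6 in DMSO, 39.2, 40.5 and 41.4 on rDLL4 and 49.3, 53.6 and 47.4 on rJAG1. DMSO library 3 was as high as the rDLL4 libraries, and all rJAG1 libraries lay above all DMSO libraries (0.71 ± 0.14 on rJAG1; 0.41 ± 0.14 on rDLL4, not called). Without DMSO library 3 and rJAG1 library 2 Cth was called on rDLL4 as well (0.62 ± 0.09, adjusted p = 0.0011). Slc7a11, the cystine side of the cystine-glutamate exchanger, changed by 0.49 ± 0.11 on rJAG1 and 0.39 ± 0.11 on rDLL4, and its partner chain Slc3a2 by 0.31 ± 0.09 and 0.18 ± 0.09, with calls on rJAG1 only. Asns was at 317, 319.7 and 307 in DMSO, 381, 367 and 357 on rDLL4 and 403, 395 and 352 on rJAG1, without overlap, and called on rJAG1 (0.28 ± 0.07, adjusted p = 0.011).

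Vegfa was at 70.5, 71.4 and 89.7 in DMSO, 92.6, 98.5 and 107 on rDLL4 and 104, 119 and 121 on rJAG1. All ligand libraries were above the DMSO libraries, and the call was made on rJAG1 (0.57 ± 0.13) and not on rDLL4 (0.37 ± 0.13). Of 12 listed hypoxia and glycolysis genes, 0 were higher and 4 lower on rJAG1 and 3 lower on rDLL4, among them Bnip3 (-1.43 and -1.10) and Car9 (-1.82 and -1.17). With inhibitor 3 were higher and 3 lower on rJAG1, and 2 higher and 3 lower on rDLL4. Slc2a1 was among the lower (-0.56 and -0.54) and Bnip3 among the higher (1.23 and 1.03). The part of hypoxia in the Vegfa changes was not tested. Ddit4 was at 30.7, 19.0 and 20.2 in DMSO, 37.1, 25.4 and 23.0 on rDLL4 and 37.3, 25.5 and 27.2 on rJAG1, overlapping groups in which each number's ligand library was above its DMSO library.

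Of the ATF4-type regulators Trib3 was called, as given above, but Atf4, Ddit3, Atf3 and Cebpb were not in the fit without pairing. Atf4 was at 521, 492 and 551 in DMSO, 574, 511 and 555 on rDLL4 and 571, 604 and 558 on rJAG1 (0.07 ± 0.07 and 0.15 ± 0.07), and all rJAG1 libraries lay above all DMSO libraries. Ddit3 was at 34.8, 25.0 and 22.7, 36.8, 30.2 and 28.1 and 36.3, 40.7 and 29.9 (0.21 ± 0.15 and 0.37 ± 0.15). Atf3 varied more within groups than between them, at 9.28, 9.35 and 23.7 in DMSO and 9.54, 14.4 and 23.9 on rJAG1, with library 3 the highest in either. ATF4 is controlled in large part by translation, which these mRNA counts do not measure.

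**Figure D4:**
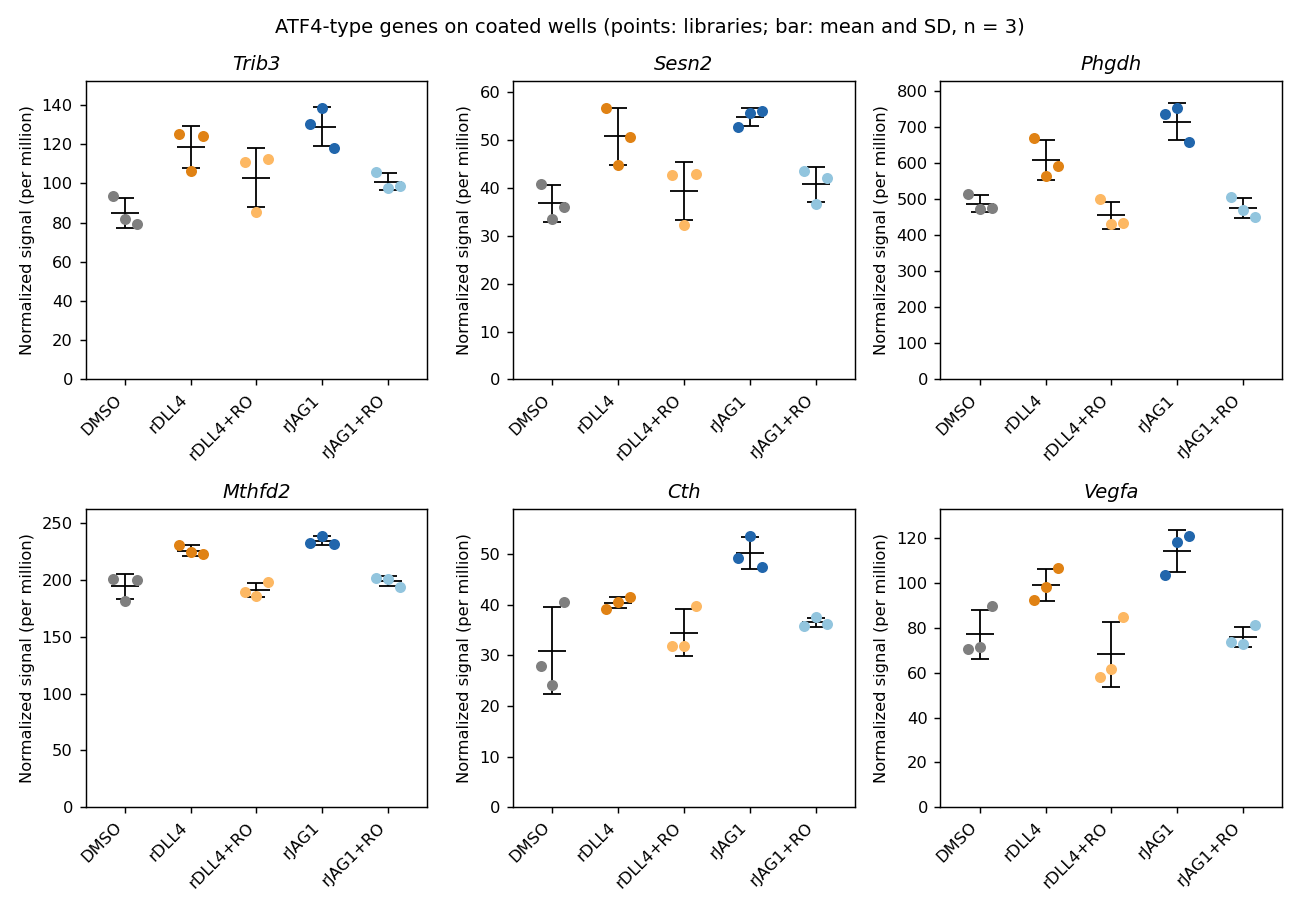
Normalized per-million signal (y axis, from 0) of 6 ATF4-type genes in the 15 coated-well libraries, by ligand and inhibitor (x axis; RO, RO4929097); points are libraries, and bars the mean and SD of 3. Trib3, Sesn2, Phgdh, Mthfd2 and Vegfa are above DMSO in all rDLL4 and all rJAG1 libraries, and the inhibitor groups lie near the DMSO group for Phgdh and Mthfd2.

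With the library number as a block, which pairs the coated-well libraries in these comparisons, 15 members were called on rJAG1 (15.1% of all genes) and 11 on rDLL4 (6.47%). Added on rJAG1 were Ddit3 (0.37 ± 0.09), Ddit4 (0.36 ± 0.07), Shmt2, Slc7a5 and the ER gene Edem1 (0.25 ± 0.06). Added on rDLL4 were Ddit4, Vegfa, Asns, Psph and Slc7a11 and the ER degradation genes Sel1l (0.25 ± 0.07) and Edem1 (0.28 ± 0.06). A fit of only the 2 groups compared called 4 members on rJAG1 (4.34% of all genes) and 0 on rDLL4 (1.23%). Leaving out rDLL4 library 1, rDLL4 library 3 or DMSO library 2 also took the rDLL4 count to 0, and DMSO library 1 to 2. Without DMSO library 3 and rJAG1 library 2, chosen after seeing the data, 14 members were called on rJAG1 (15.9% of all genes). Of these 12 were ATF4-type and higher, and the ER genes Calr (-0.26) and Pdia6 (-0.23) were lower. On rDLL4 4 were called (8.5% of all genes), but Vegfa and Cth stood in place of Sesn2 and Phgdh beside Trib3 and Mthfd2.

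rDLL4 against rJAG1 called no member (0.231% of all genes; 3 members at an unadjusted p under 0.05, and edgeR 0). Of the 22 ATF4-type genes 18 were lower on rDLL4 than on rJAG1. The largest differences were -0.30 ± 0.14 for Cth and -0.28 ± 0.12 for Cebpb. The counts of 4 and 10 are thus no shown difference between the ligands.

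ATF4-type genes were lower with inhibitor in the coated wells. With rJAG1, 8 of 22 were lower and 0 higher under RO4929097, and with rDLL4 4 were lower and 0 higher; of all genes 18.4% (8.78% lower) and 10.7% (5.76% lower) were called, so the members' 8 of 40 and 4 of 40 lower, 20% and 10%, stand beside 8.78% and 5.76%. The median change of the class was -0.18 on rJAG1 and -0.16 on rDLL4, and that of the ER genes 0.11 and 0.05. Vegfa, Phgdh and Mthfd2 were lower on both ligands, Trib3, Sesn2, Ddit4, Cth and Slc7a11 on rJAG1, and Shmt2, the mitochondrial serine hydroxymethyltransferase gene, on rDLL4 (-0.24 ± 0.07). These comparisons share the ligand wells with those against DMSO. No wells held inhibitor without ligand, so the inhibitor's own effect and the loss of ligand signal cannot be told apart.

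Phgdh was at 500.1, 431 and 435 on rDLL4 with inhibitor (-0.42 ± 0.08, adjusted p = 0.0038) and 506, 469.7 and 452 on rJAG1 with inhibitor (-0.59 ± 0.08, adjusted p = 0.00013). Every inhibitor library lay below every library of its ligand alone. Mthfd2 was at 189, 186 and 198 (-0.24 ± 0.06) and 202, 200.4 and 194 (-0.24 ± 0.06) in the same order. Vegfa was at 58.0, 61.8 and 84.9 (-0.55 ± 0.13) and 74.0, 72.8 and 81.3 (-0.58 ± 0.13), below its ligand group on either ligand.

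Trib3 was at 111, 85.6 and 112 on rDLL4 with inhibitor (-0.21 ± 0.10, not called) and 106, 97.8 and 98.6 on rJAG1 with inhibitor (-0.35 ± 0.10). Sesn2 was at 42.8, 32.4 and 42.9 (-0.37 ± 0.12, not called) and 43.7, 36.7 and 42.2 (-0.42 ± 0.12). The Trib3 groups overlapped on rDLL4 and not on rJAG1, while the Sesn2 groups overlapped on neither. Cth was at 31.9, 31.8 and 39.8 and 35.8, 37.6 and 36.2 (-0.44 ± 0.14 on rJAG1, a call lost without any 1 of the 6 libraries). Ddit4 was at 21.5, 13.7 and 14.7 (-0.74 ± 0.24, not called) and 23.9, 15.04 and 14.6 (-0.73 ± 0.24, adjusted p = 0.043), and in each number's pair the inhibitor library was the lower. The rJAG1 calls of Ddit4 and Slc7a11 were kept in 1 of 6 such fits, that of Trib3 in 2 and that of Sesn2 in 3, while Vegfa, Phgdh and Mthfd2 kept theirs in 6 of 6.

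The 2 inhibitor effects were not shown to differ. No member was called in their difference (0.0149% of all genes, 0 members at an unadjusted p under 0.05, edgeR 0), nor between the 2 ligands under inhibitor (0% of all genes, 0 members at an unadjusted p under 0.05, edgeR 0). Against DMSO control wells, 1 member was called for rDLL4 with inhibitor, Dnajc3 (1.4% of all genes). For rJAG1 with inhibitor 0 were called (0.94% of all genes, 4 members at an unadjusted p under 0.05, edgeR 0). The ATF4-type medians were 0.07 for rDLL4 and 0.15 for rJAG1 with inhibitor, with 13 and 19 of 22 positive. Those of the ER genes were 0.15 and 0.12, with 17 of 18 positive in either, beside 0.00 and 0.01 for all genes. The few calls are thus no shown return to the DMSO level. Paired by number, Ddit4 was lower and Dnajc3 higher than in DMSO wells both for rDLL4 (-0.46 and 0.32, 4.38% of all genes) and for rJAG1 with inhibitor (-0.37 and 0.29, 2.9% of all genes). The call of Dnajc3 against DMSO is lost without any 1 of the 6 libraries.

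Dnajc3 was the single ER gene called on coated wells in the fit of all groups without pairing. It was at 169, 163 and 147 in DMSO, 169, 181 and 162 on rDLL4, 169.8, 160.0 and 154 on rJAG1, 188, 214 and 196 on rDLL4 with inhibitor and 184, 211 and 191 on rJAG1 with inhibitor. The inhibitor libraries lay above all others, with 0.32 ± 0.08, adjusted p = 0.049 for rDLL4 with inhibitor against DMSO and 0.27 ± 0.08, adjusted p = 0.019 for rJAG1 with against without inhibitor. Hspa5 was at 1397, 1500.5 and 1288 in DMSO, 1632, 1648 and 1575 on rDLL4, 1574, 1802 and 1404 on rJAG1, 1600.4, 1561 and 1604 and 1513, 1709 and 1635 with inhibitor, with all rDLL4 libraries above all DMSO libraries but no call (0.22 ± 0.09, adjusted p = 0.32). Herpud1 (95.00, 75.2 and 69.6 in DMSO, 93.9, 83.1 and 76.8 on rJAG1), Manf (153, 147 and 142 and 159, 184 and 143), Creld2 (51.4, 50.4 and 49.3 and 46.8, 61.6 and 47.7) and Xbp1 (88.3, 91.0 and 75.6 and 96.6, 108 and 92.7) were not called.

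The inhibitor counts also move with the fit. Paired by number, 15 members were called with inhibitor on rJAG1 (27.1% of all genes), among them Asns (-0.16), Psph (-0.23), Shmt2 and Slc3a2 lower and Psat1 (0.19) and Pdia4 (0.25) higher beside those named above. On rJAG1 the count of 9 fell to 5 without rJAG1 library 1, 3 without rJAG1 plus inhibitor library 2 and 5 without its library 3, and on rDLL4 the count of 4 fell to 1 without rDLL4 plus inhibitor library 2. Without DMSO library 3 and rJAG1 library 2, 11 members were called on rJAG1 and 9 on rDLL4, beside 19.8% and 17.3% of all genes. Besides Dnajc3 the ER genes among them were all higher with inhibitor: Calr (0.24), Pdia4 (0.31) and Pdia6 (0.24) on rJAG1, and Pdia6 (0.18) and Sdf2l1 (0.26) on rDLL4, and the last 2 were also called in a fit of only the 2 groups. The summed signal of the 5 listed endothelial markers was 71.4 to 116 in DMSO, 73.3 to 97.1 on rDLL4, 62.9 to 75.6 on rJAG1, 103 to 117 on rDLL4 with inhibitor and 88.7 to 105 on rJAG1 with inhibitor. Nfatc1, Eng and Kdr among them were lower and Tek higher with inhibitor on rJAG1, and Nfatc1 lower on rDLL4; their part in the ATF4-type changes was not tested. No feeder is named for these wells, but the 9 OP9 markers listed there summed to levels like those over the ligand feeders (772 to 1246). The sets differ, with Ebf1 on coated wells in place of Fabp4 over the ligand feeders, and the experiments were not put on a common scale. The OP9 markers on coated wells also moved with ligand and inhibitor. They summed to 826 to 1177 in DMSO, 761 to 892 on rJAG1 and 1096 to 1176 on rJAG1 with inhibitor, and to 850.4 to 1011 on rDLL4 and 1142 to 1287 on rDLL4 with inhibitor, so that the inhibitor groups lay above their ligand groups without overlap. On rJAG1 Prrx1 was higher (1.76) and then lower with inhibitor (-1.26), Lpl went the opposite way (-0.64 and 0.79), and with inhibitor Pdgfrb was lower (-0.85) and Vcam1 higher (0.65). The part of these markers in the member changes was not tested.

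**Figure D5:**
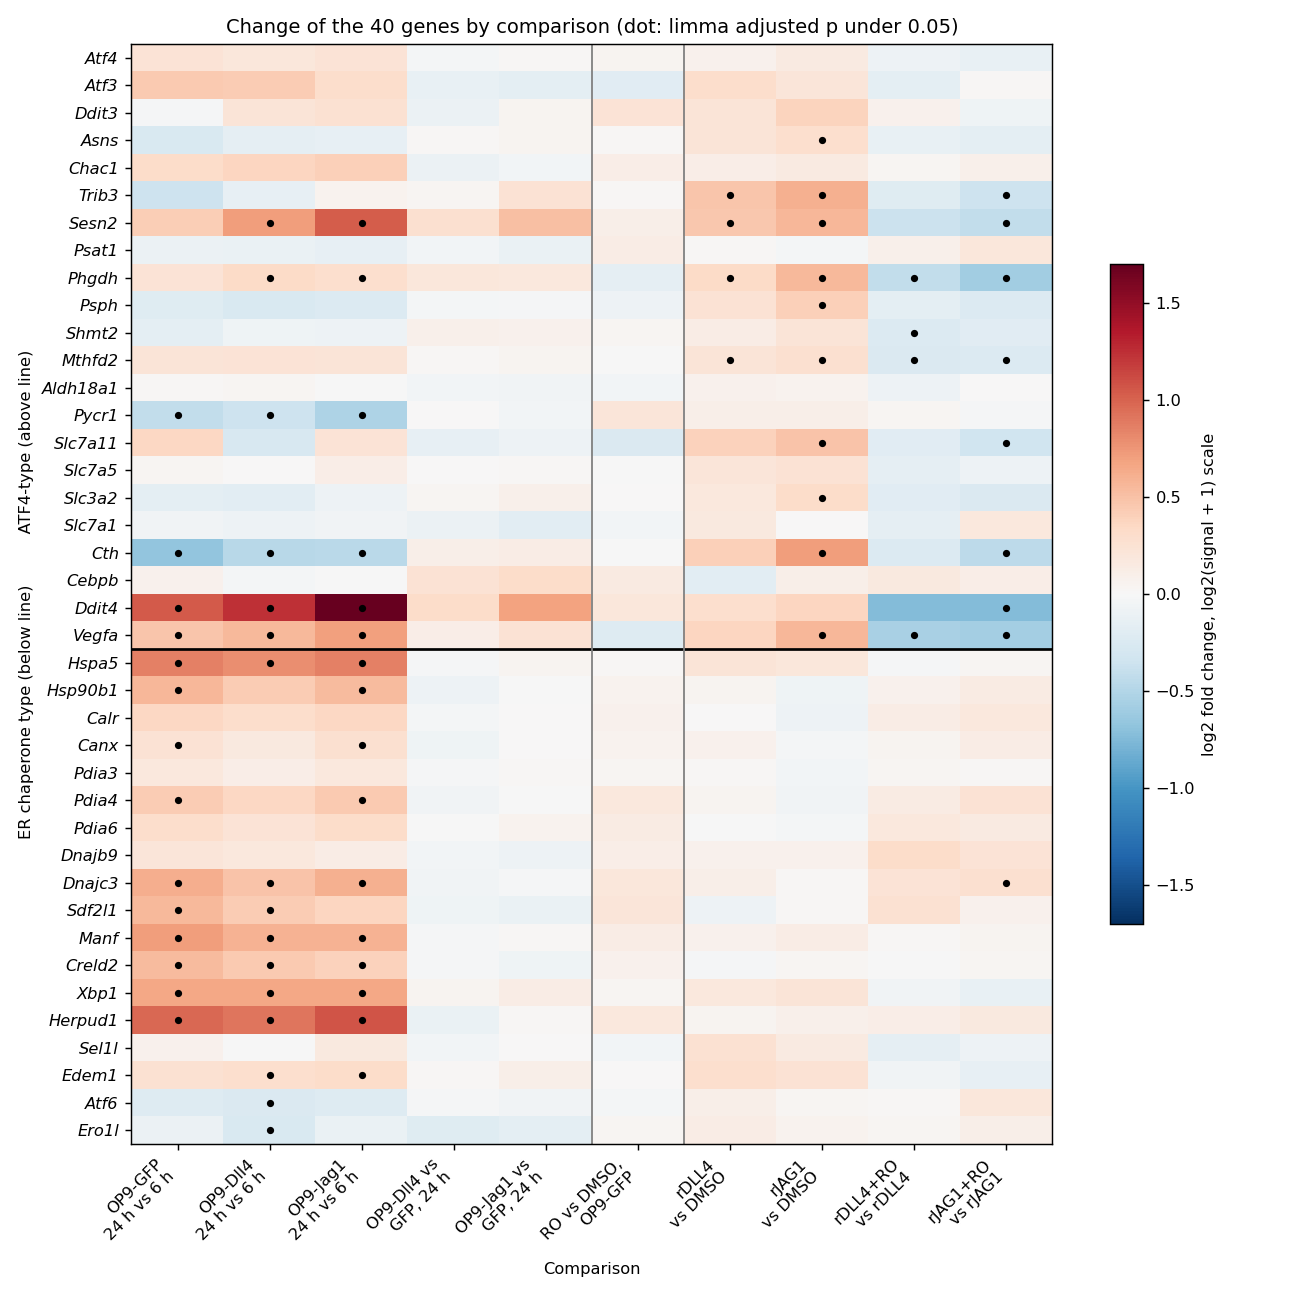
Log2 fold change (colour, log2(signal + 1) scale, -1.7 to 1.7) of the 40 genes (y axis) in 10 comparisons (x axis; RO, RO4929097); dots mark limma adjusted p under 0.05, and grey lines separate the 3 experiments. Dots in the ER block below the black line lie almost all in the 3 time comparisons, with 1 for Dnajc3 on coated wells, and dots of Trib3, Asns, Psph, Mthfd2 and Slc7a11 only on coated wells.

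In the fit of all groups without pairing, 26 of the 40 genes were called in at least 1 of 21 comparisons and 14 in none. The 14 were the regulators Atf4, Atf3, Ddit3 and Cebpb, the glutathione-degrading Chac1, the synthesis genes Psat1 and Aldh18a1, the transporter genes Slc7a5 and Slc7a1, and the ER genes Calr, Pdia3, Pdia6, Dnajb9 and Sel1l. In at least 1 other fit, paired, with libraries left out or scaled otherwise, Atf4, Ddit3, Cebpb, Chac1, Psat1, Slc7a5, Calr, Pdia3, Pdia6 and Sel1l were called, so that the 14 are not uncalled under every choice. Chac1, a sensitive ATF4 target elsewhere, was at 74.1, 65.7 and 49.1 in DMSO and 78.2, 70.4 and 59.9 on rJAG1, which overlap. Slc7a5, the leucine transporter gene, changed by 0.24 ± 0.08 and the arginine transporter gene Slc7a1 by 0.00 ± 0.13 on rJAG1.

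Other genes of the pathway were followed through lists of genes that are not members. Of 12 cytosolic aminoacyl-tRNA synthetases, which charge tRNAs and include known ATF4 targets, 7 were higher on rJAG1 and 2 on rDLL4, 5 and 2 were lower with inhibitor on those ligands, and 0 were called in the time comparisons. Wars was the largest (0.38 ± 0.08 on rJAG1, 0.34 ± 0.08 on rDLL4, -0.48 ± 0.08 and -0.49 ± 0.08 with inhibitor), and Gars followed (0.30 ± 0.06 and 0.23 ± 0.06). All 12 were positive on either ligand, with medians of 0.25 and 0.16 beside 0.00 and 0.00 for all genes. Of 18 other ATF4 targets, 6 were higher and 1 lower on rJAG1, 5 higher and 1 lower on rDLL4, and 1 higher and 5 lower, and 1 higher and 4 lower, with inhibitor. Beside both lists, 4.83% of all genes were higher and 4.76% lower on rJAG1, and 2.45% and 1.05% on rDLL4. With inhibitor 9.58% of all genes were higher and 8.78% lower on rJAG1, and 4.91% and 5.76% on rDLL4. Nupr1, a stress-induced chromatin protein gene, changed by 1.52 ± 0.24 on rJAG1 and -1.54 ± 0.24 with inhibitor, while Ndrg1, also a hypoxia target, went the other way (-0.66 ± 0.11 and 0.45 ± 0.11).

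In time over OP9-GFP, 1 of 17 listed other ATF4 targets was higher and 5 were lower, among them the glycine transporter gene Slc6a9 (-0.85 ± 0.17) and the lipoprotein receptor gene Vldlr (-1.09 ± 0.23). Over OP9-Dll4 and OP9-Jag1 1 was higher and 4 were lower. Of all genes 9.71%, 8.33% and 7.61% were lower over the 3 feeders. Of 25 other ER folding, secretion and degradation genes, 3 were higher at 24 h over every feeder, or 12% beside the 9.45%, 9.09% and 7.14% of all genes that were higher, with list medians of 0.07, 0.04 and 0.11. They were Creb3l2, a membrane-bound relative of ATF6 (0.80 ± 0.07, 0.73 ± 0.07 and 0.73 ± 0.07), Syvn1, the Hrd1 ligase gene (0.42 ± 0.09, 0.36 ± 0.09 and 0.43 ± 0.09), and Hyou1, a BiP exchange factor gene (0.31 ± 0.08, 0.32 ± 0.08 and 0.35 ± 0.08). Wfs1 was lower over OP9-GFP and OP9-Dll4. On coated wells 1 of the 25 was called with ligand, Creb3l2, lower on rJAG1 (-0.36 ± 0.09). The 15 genes of stress sensors and eIF2 control hardly moved with time (0, 1 and 1 called over the 3 feeders, beside 19.2%, 17.4% and 14.7% of all genes). On coated wells 1 was called on rJAG1, the heme-regulated kinase gene Eif2ak1 (-0.32 ± 0.08), beside 9.58% of all genes. With inhibitor on rJAG1 5 were called, beside 18.4% of all genes, 4 of them higher, Eif2ak1 again among them (0.37 ± 0.08).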

How the data were processed

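RNA was extracted with PicoPure and libraries made with NEBNext Ultra, per the labels' protocols. FastQC, cutadapt, RSEM, limma and build GRCm38 are named per the submitters' processing notes; versions, annotation and strand setting are not given in the sources used here, so reads of overlapping genes cannot be told apart. Each experiment came as 1 table of signal that the authors had normalized; the deposited signal is a whole number of reads plus 0.5, divided by a scaled library size, and reads came back whole within 0.01 for 100% of values. A floor of 3 reads (counting error only) is a signal of 0.179 to 0.221, 0.119 to 0.158 and 0.0859 to 0.266.

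For the tests, limma 3.58.1 (R 4.3.3, trend) was run on the deposited signal as log2(signal + 1), all groups of a table together, with Benjamini-Hochberg adjustment over all its genes; a minimum signal of 1 removed 0 genes. Folds of low genes are understated. The members, lists and rules were chosen with earlier results of these data known; library values were given for members called in at least 3 comparisons and for Atf4, Ddit3, Asns, Hspa5 and Xbp1, other lists by counts and at most 4 genes a comparison. Some values were shown beside these after they had been seen, as for Atf3 and Chac1. The labels do not say that libraries were separate cultures, so p-values measure the spread between these libraries, which may be technical. No 2 libraries of a group were alike within sampling noise (chi-square per gene 5.45 to 52.5 over 45 pairs). Same-numbered libraries deviated together (correlation over 0.1 in every pair) in 14 comparisons within a time or experiment (0.11 to 0.68), but not in rDLL4 with against without inhibitor (0.08 to 0.40) or between times (0.03 to 0.28), from the titles' numbers. Alternatives were a block for the number, pseudocount 0.5, no minimum, a minimum of 5, quantile normalization, edgeR 4.0.16 (quasi-likelihood, TMM) on recovered reads, only the 2 groups compared, and each library left out. The fit was tested on simulated data that held larger changes than most reported here and no effect of library number. That test therefore does not bear on small changes or on libraries that stand apart.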

Additional observations from a re-analysis of the deposited data

Results flagged for a closer look

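In the second experiment each member was examined in each treatment for 1 library far from the other 3 (the gap to the nearest over the whole range, against Dixon's critical value). Of 80 such groups 3 had one, where chance gives about 1 in 20. With inhibitor, Slc3a2 was at 175 in library 1 and 202 to 206 in the others, Slc7a5 at 285 in library 4 and 243 to 245 in the others, and Vegfa at 34.1 in library 2 and 28.9 to 29.6 in the others. Each is 1 library of the inhibitor group, and none of the 3 genes was called in that comparison.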

How the results depend on the processing

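No member change called in the fit of all groups without pairing reversed under any alternative run. The call was kept in 832 such checks and lost in 203. Changes not called there, and genes that are not members, were not checked in this way. Counts of called members moved by over 1.5 times as follows. With the library number as a replicate block within each time, OP9-Dll4 and OP9-Jag1 against OP9-GFP went from 0 to 1 and 3 at 6 h and to 2 and 6 at 24 h. With 1 replicate block over both times they were 1 and 2 at 24 h. The time comparisons, whose numbers do not pair, then called 27, 26 and 26 members over OP9-GFP, OP9-Dll4 and OP9-Jag1, beside 32.7%, 30.2% and 25.3% of all genes. On coated wells the replicate block gave 11 for rDLL4 (9 ATF4-type), 8 and 15 (13 ATF4-type) for inhibitor on rDLL4 and on rJAG1, and 2 and 2 for rDLL4 and rJAG1 with inhibitor against DMSO. In the same order 6.47%, 17.3%, 27.1%, 4.38% and 2.9% of all genes were called. The block moved no other count by as much. A fit of only the 2 groups gave 9 for time over OP9-Dll4 (6 ER), 0 for rDLL4 (0 ATF4-type), 4 for rJAG1 (4 ATF4-type), 8 for inhibitor on rDLL4 and 0 for rDLL4 with inhibitor against DMSO, which was also 0 with pseudocount 0.5 and with edgeR. The counts of 9, 4 and 8 in that fit stand beside 10.5%, 4.34% and 15.8% of all genes. Without DMSO library 3 and rJAG1 library 2, inhibitor on rDLL4 gave 9, beside 17.3% of all genes. Leaving out 1 library gave 8 to 19, 8 to 16 and 8 to 17 members (5 to 13, 5 to 11 and 3 to 11 ER) for time over the 3 feeders, 0 to 2 for OP9-Jag1 at 24 h, 0 to 4 (0 to 4 ATF4-type) for rDLL4, 7 to 11 for rJAG1, 1 to 4 (1 to 4) and 3 to 8 (3 to 7) for inhibitor on rDLL4 and on rJAG1, 0 to 0 for rDLL4 with inhibitor against DMSO and 0 to 1 for rJAG1 with inhibitor against DMSO. The cause of these moves was not tested, beyond the fewer libraries that some fits hold. Every member signal printed lies above the floor of 3 reads, and the part of depth in the calls was not tested.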
